A study of Mus musculus with 18 samples.

Results

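The maturation of the wild-type mouse hindlimb between stages E11.5 and E12.5, in days of embryonic development, was followed in 6 RNA sequencing libraries, 3 of each stage, chosen by the stage and genotype in their labels. They belong to a study of 18 libraries, in which hindlimb tissue of wild-type mice and of mice lacking Pitx1 was sequenced at 3 stages, E9.5 being the earliest, with 3 libraries a group. Pitx1 encodes a homeodomain transcription factor that sets the hindlimb apart from the forelimb. All 6 libraries came from wild-type C57BL/6 embryos, with no allele or agent named for them, and the labelled tissue was the hindlimb at both stages. The 6 knockout libraries of E11.5 and E12.5, of the same strain and tissue, enter only the comparison of genotypes near the end. The labels do not say how many embryos gave a library or whether libraries of a stage came from separate litters, so the spread that p-values rest on is that among the libraries, and some of it may be technical. The stages were deposited in separate tables, and anything else that differed between the collections of the stages cannot be told apart from stage.

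In the early limb bud, the apical ectodermal ridge at the distal edge secretes fibroblast growth factors (FGFs), and posterior mesenchyme called the zone of polarizing activity secretes Sonic hedgehog. Both keep the mesenchyme growing while Hox, T-box and Meis genes mark its regions. As the bud matures, mesenchyme condenses into cartilage models of the bones, joints form between them, and muscle precursors that migrated in from the somites become myoblasts, fuse into fibres and are contacted by nerves. Tendon and connective tissue cells arise from the limb mesenchyme itself.

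Depth was 38646752, 40835559 and 39008717 fragments in the E11.5 libraries and 24218637, 26404079 and 39293759 in those of E12.5. Levels below are the authors' RPKM (fragments scaled to transcript length and library size), each library multiplied by 1 factor between 0.978 and 1.02 so that both tables share a scale, and they are listed in the order of replicates 1, 2 and 3. The labelled tissue fitted its markers. Pitx1 lay between 43.7 and 141 RPKM in the 6 libraries and Tbx4, the hindlimb T-box gene, between 42.9 and 70.5, whereas Tbx5, its forelimb counterpart, stayed between 0.500 and 1.37. The Y-linked gene Eif2s3y lay between 23.4 and 30.02 RPKM in every library, and Xist did not exceed 0.0344 in any.

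Some libraries stood apart. The first principal component of log2 CPM held 67.0% of the variance and placed the E11.5 libraries at -49.9, -30.4 and -59.4 and the E12.5 libraries at 30.5, 43.3 and 65.9, so that replicate 3 of each stage lay farthest out. Markers of liver and yolk sac were high in E12.5 replicate 1. Afp, the fetal plasma protein alpha-fetoprotein, measured 3.52, 4.30 and 5.12 RPKM at E11.5 and 267, 3.45 and 17.9 at E12.5. E12.5 replicate 3 had the lowest Pitx1 (43.7 RPKM against 112 and 111) and E11.5 replicate 3 the highest Meis1, a proximal limb gene (31.1 RPKM against 17.2 and 10.4). Wt1, a gene of the mesothelium and urogenital ridge, measured 2.87 RPKM in E11.5 replicate 3 and did not exceed 0.204 in the other 5 libraries. The part of these differences in the results was not tested beyond leaving out each library in turn.

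Of 14906 genes tested, 3771 (25.3%) passed the test between stages, with 2191 (14.7%) higher and 1580 (10.6%) lower at E12.5 (edgeR quasi-likelihood test, Benjamini-Hochberg adjusted p under 0.05). The larger changes were mostly rises: 1063 genes (7.13%) were at least 2-fold higher and 213 (1.43%) at least 2-fold lower. The median log2 fold change of all genes was 0.01, and the libraries of the stages did not overlap for 6867 genes (46.1%). Counts depended on single libraries. Rises numbered 1272 without E11.5 replicate 1, 1274 without E11.5 replicate 3, 1415 without E12.5 replicate 2 and 1379 without E12.5 replicate 3, and falls numbered 974 without E11.5 replicate 1, 870 without E11.5 replicate 3 and 842 without E12.5 replicate 2. Among rises of at least 2-fold, 672 were counted without E12.5 replicate 3, and among such falls 136 without E11.5 replicate 1. Passing in the same direction in the full set and without each library in turn was seen for 1632 genes (10.9%), 1005 of them higher, and most genes named below are of this kind. Log2 fold changes are E12.5 minus E11.5 and are given ± their standard error (SE), while means are given ± SD with n = 3. In whole tissue, fewer cells of a type and less RNA per cell cannot be told apart.

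**Figure D1:**
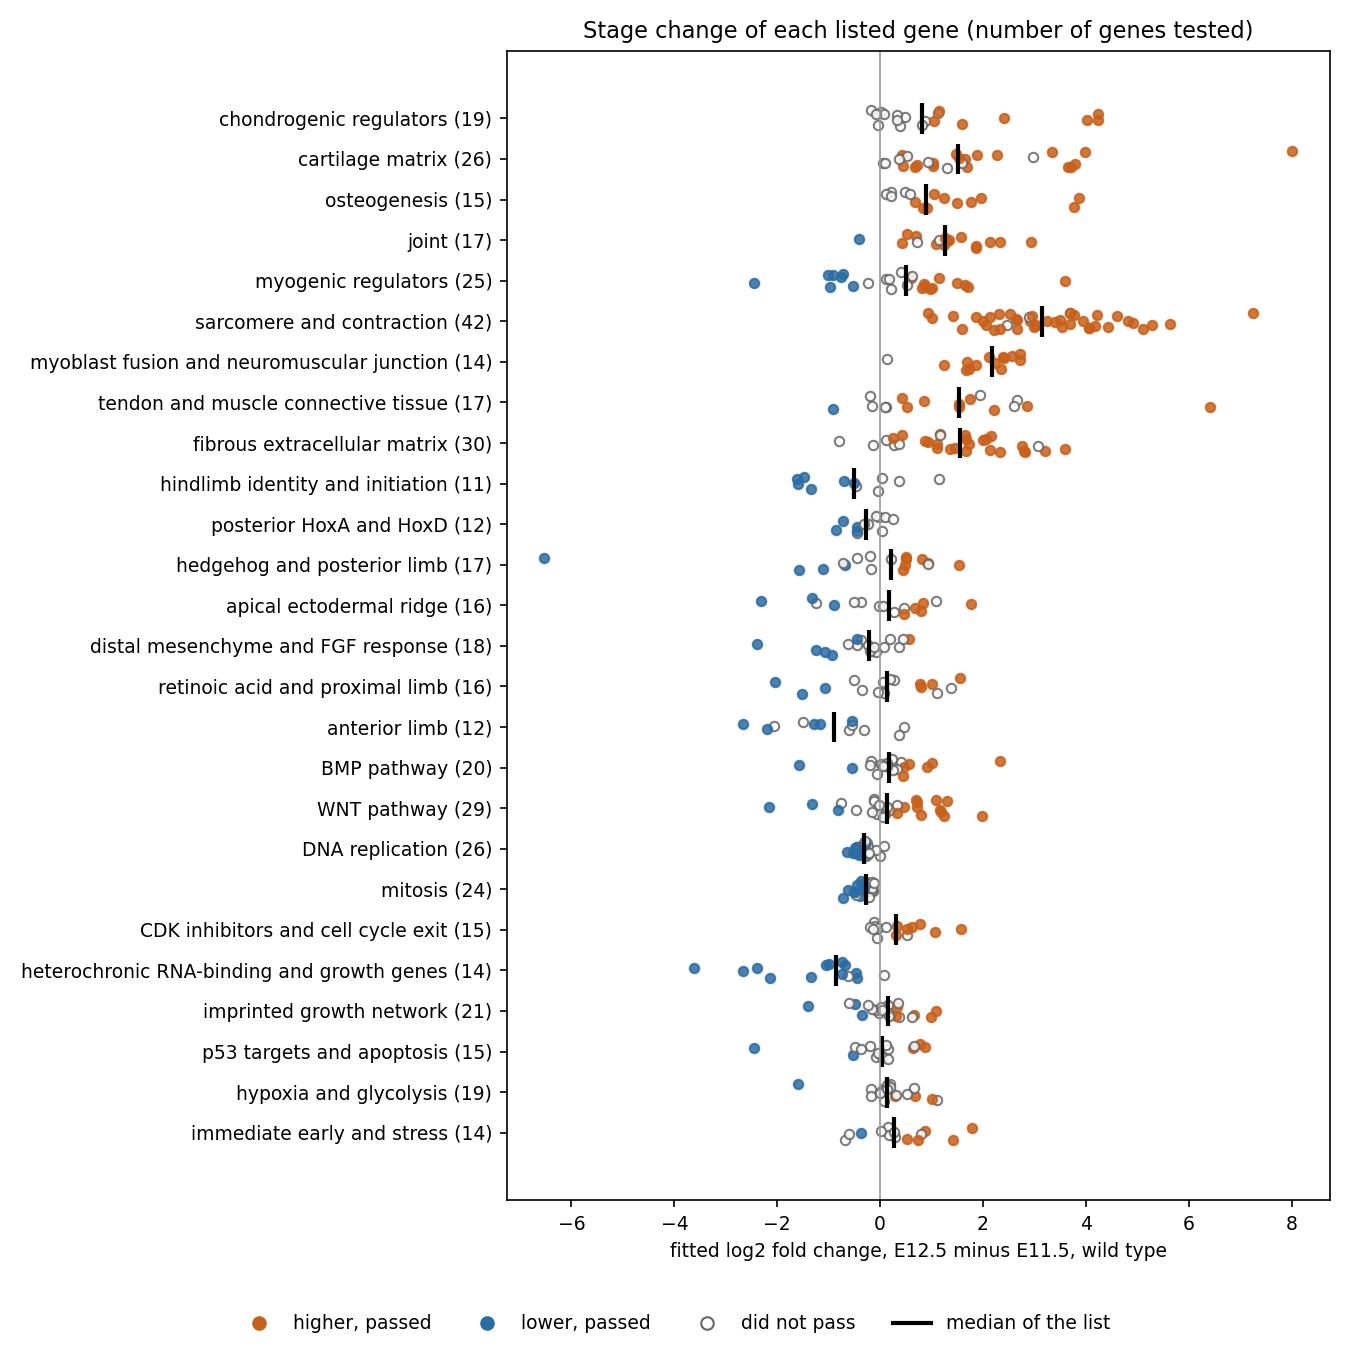
Fitted log2 fold change (E12.5 minus E11.5, wild type, horizontal axis) of every tested gene of 26 gene lists, with the number of genes tested in brackets. Filled points passed the test, open points did not, and the black bar is the median of the list. The fitted value of a gene without fragments at E11.5, such as 3110079O15Rik among the cartilage matrix genes, depends on the prior count of the fit. Of the 26 lists plotted, sarcomere genes lie farthest to the right (median 3.14), heterochronic and anterior limb genes farthest to the left (medians -0.86 and -0.89), and DNA replication and mitosis genes crowd just below 0.

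The plot of 26 lists leaves out the cell type markers and the lists added later. In it, skeletal, muscle, joint and fibrous matrix genes lay to the right of 0, patterning lists spread to both sides, and proliferation genes shifted left by small amounts.

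Chondrogenic regulators were the first skeletal group examined. Of 19 tested, 7 rose and the others did not pass, with a median log2 fold change of 0.82. Sox9, the transcription factor that starts cartilage formation, measured 50.02, 51.8 and 43.8 RPKM at E11.5 and 63.5, 49.4 and 34.7 at E12.5. Its libraries overlapped widely between stages, and it did not pass (log2 fold change 0.02 ± 0.21, adjusted p = 0.954, edgeR). Its partners Sox5 (0.08 ± 0.20) and Sox6 (0.87 ± 0.33) did not pass either (adjusted p = 0.801 and 0.111, edgeR), but Sox6 passed without E11.5 replicate 2 (1.30, adjusted p = 0.00550, edgeR).

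The largest rises of that list were of Ihh, Scrg1 and Cytl1, genes of maturing chondrocytes. Ihh, the hedgehog ligand of prehypertrophic cartilage, measured 0.0536, 0.323 and 0.120 RPKM at E11.5 and 3.56, 4.34 and 1.62 at E12.5. Every E12.5 library lay above every E11.5 library, and the rise was 18.8-fold (log2 fold change 4.23 ± 0.63, adjusted p = 0.00541, edgeR). Scrg1, a secreted factor of differentiating chondrocytes, measured 0.244, 0.780 and 0.0495 RPKM at E11.5 and 8.48, 5.56 and 6.75 at E12.5 (log2 fold change 4.23 ± 0.64, adjusted p = 0.00447, edgeR). Cytl1, a cytokine-like chondrocyte protein, measured 1.38, 1.30 and 1.30 RPKM at E11.5 and 10.3, 18.5 and 36.1 at E12.5 (log2 fold change 4.03 ± 0.47, adjusted p = 0.00374, edgeR). Without E11.5 replicate 2 the log2 fold changes of Ihh and Scrg1 were 5.16 and 5.49, and without E12.5 replicate 3 that of Cytl1 was 3.42. E12.5 replicate 3 was the highest library for Cytl1 and the lowest E12.5 library for Ihh. Runx3 and Runx2, transcription factors of chondrocyte hypertrophy and bone, rose 5.29-fold and 2.08-fold (0.332 to 0.729 RPKM at E11.5 and 2.51 to 2.82 at E12.5 for Runx3, 1.80 to 2.64 RPKM at E11.5 and 4.09 to 4.71 at E12.5 for Runx2). Fgfr3, the FGF receptor that restrains growth plate cartilage, rose 2.22-fold.

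Of 26 cartilage matrix genes tested, 18 rose and the remaining 8 did not pass, and all 26 fitted changes were positive, with a median of 1.51. The count of rises was 11 without E11.5 replicate 1 or E12.5 replicate 2 and 10 without E12.5 replicate 3. Summed over the list, levels were 317, 417 and 276 RPKM at E11.5 and 750.3, 716 and 754 at E12.5, with no overlap between stages. Col2a1, the main fibrillar collagen of cartilage, measured 120.5, 131 and 94.6 RPKM at E11.5 and 201, 185 and 169.6 at E12.5. Each E12.5 library exceeded each E11.5 library, a rise of 1.60-fold (log2 fold change 0.68 ± 0.12, adjusted p = 0.00680, edgeR). Among the other collagens of the cartilage fibril, Col9a1 rose 1.64-fold, Col9a3 3.23-fold and Col11a1 2.03-fold (adjusted p = 0.00767, 0.00755 and 0.00562, edgeR). Col9a2 and Col11a2 passed as higher (1.48 ± 0.28 and 1.65 ± 0.36), but Col9a2 was lost without E11.5 replicate 1 or E12.5 replicate 2 or 3 (adjusted p from 0.0565 to 0.0591, edgeR) and Col11a2 without E11.5 replicate 1 or E12.5 replicate 1, 2 or 3 (adjusted p from 0.0533 to 0.107, edgeR).

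Several matrix genes had low levels at E11.5. Chad, the chondrocyte adhesion protein chondroadherin, measured 0.0995, 0.422 and 0.152 RPKM at E11.5 and 2.62, 2.78 and 3.16 at E12.5 (log2 fold change 3.65 ± 0.48, adjusted p = 0.00289, edgeR). Mia, a small secreted protein of cartilage, measured 0.668, 4.03 and 1.90 RPKM at E11.5 and 24.3, 37.5 and 43.1 at E12.5 (log2 fold change 3.98 ± 0.56, adjusted p = 0.00540, edgeR). No fragment of 3110079O15Rik, also called Snorc, a cartilage proteoglycan of the membrane, was counted at E11.5, against 90 over the E12.5 libraries, so it was at least 38.6-fold higher against a floor of 3 fragments over the group (adjusted p = 0.00429, edgeR). Matn1, a matrilin of the cartilage matrix, measured 0.748, 1.80 and 0.353 RPKM at E11.5 and 6.82, 16.8 and 14.7 at E12.5 (log2 fold change 3.71 ± 0.66, adjusted p = 0.0135, edgeR), and its call was lost without E11.5 replicate 1 or E12.5 replicate 3 (adjusted p from 0.0531 to 0.0627, edgeR). Acan, the large proteoglycan aggrecan, measured 0.459, 1.86 and 0.0749 RPKM at E11.5 and 4.54, 5.82 and 8.5 at E12.5. The stages did not overlap for Acan, yet the E11.5 libraries differed widely among themselves, and it did not pass (log2 fold change 2.97 ± 1.09, adjusted p = 0.118, edgeR). Acan did pass without E11.5 replicate 2 (4.55, adjusted p = 0.0231, edgeR), without the robust step of the fit (adjusted p = 0.0278, edgeR), with 12 libraries in the fit (adjusted p = 0.0478, edgeR) and with DESeq2 (adjusted p = 0.0313). Leaving out E11.5 replicate 2 put Chad at 4.48, Mia at 4.76 and Matn1 at 4.53.

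Of 15 osteogenesis genes tested, 10 rose, with a median log2 fold change of 0.90, and 6 did so without E11.5 replicate 3. The list counts Runx2 and Mef2c, which other lists hold as well. Sp7, the osteoblast transcription factor osterix, measured 0.992, 1.20 and 0.914 RPKM at E11.5 and 2.33, 2.44 and 2.62 at E12.5 (log2 fold change 1.25 ± 0.22, adjusted p = 0.00601, edgeR). Mmp9, a matrix protease of cartilage resorption and of invading cells, measured 0.0808, 0.175 and 0.0328 RPKM at E11.5 and 0.772, 1.33 and 1.87 at E12.5 (log2 fold change 3.76 ± 0.56, adjusted p = 0.00429, edgeR), and was at 4.52 without E11.5 replicate 2. Dlx6 rose 3.43-fold, Mef2c 2.80-fold and Msx2 1.87-fold (adjusted p = 0.00552, 0.00472 and 0.00664, edgeR), all of them transcription factors of skeletal precursors. Col10a1 and Phex, of the same list, also passed as higher, Col10a1 with the largest change of the passing genes. Of the 10 rises, 6 passed without each library in turn. The genes of mineralized bone Ibsp, Bglap, Bglap2 and Dmp1 and the hypertrophic cartilage protease Mmp13 were too low to test, and Twist1, which holds back osteoblast differentiation and had the highest level of the list, measured 117 ± 7.67 RPKM at E11.5 and 126 ± 4.81 at E12.5.

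Most joint genes rose. Of 17 tested, 14 rose and 1 fell, with a median of 1.27, against 14.7% and 10.6% of all genes tested. Rises numbered 10 without E11.5 replicate 1 or 3 or E12.5 replicate 3, and 8 of the 14 passed without each library in turn. Gdf5, the growth factor that marks the joint interzone, measured 10.2, 15.2 and 7.39 RPKM at E11.5 and 49.8, 44.1 and 50.5 at E12.5. The lowest E12.5 library lay far above the highest E11.5 library, and the rise was 4.40-fold (log2 fold change 2.14 ± 0.25, adjusted p = 0.00416, edgeR). Erg, a transcription factor of articular chondrocytes, rose 3.66-fold (6.82 to 11 RPKM at E11.5 and 27.3 to 36.0 at E12.5, adjusted p = 0.00234, edgeR). Among secreted factors of the interzone, the WNT ligands Wnt9a and Wnt4 rose 2.48-fold and 2.38-fold, Gdf6 2.55-fold, and the BMP antagonists Nog and Chrd 5.06-fold and 2.13-fold. Dcx, doublecortin, was the listed gene that fell, with 6.68 ± 0.360 RPKM at E11.5 and 5.02 ± 0.420 at E12.5 (log2 fold change -0.41 ± 0.09, adjusted p = 0.0119, edgeR).

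Myogenic regulators moved in both directions. Of 25 myogenic regulators tested, 11 rose and 7 fell. The count of falls was 3 without E11.5 replicate 1 or 3 and 4 without E12.5 replicate 2. Pax3, which specifies the migrating precursors, measured 2.38, 1.57 and 3.02 RPKM at E11.5 and 0.441, 0.570 and 0.258 at E12.5. The highest E12.5 library held 0.570 RPKM and the lowest E11.5 library 1.57, a fall of 5.46-fold (log2 fold change -2.45 ± 0.36, adjusted p = 0.00399, edgeR). Met, the receptor that these cells need to leave the somite, measured 7.25, 7.70 and 7.92 RPKM at E11.5 and 4.41, 3.82 and 3.36 at E12.5 (log2 fold change -0.98 ± 0.11, adjusted p = 0.00241, edgeR). Lbx1 and Myf5 passed as lower (-1.01 ± 0.29 and -0.72 ± 0.18), but Lbx1 was lost without E11.5 replicate 1 or 3 or E12.5 replicate 1 or 3 (adjusted p from 0.0780 to 0.0956, edgeR) and Myf5 without E11.5 replicate 1 or 3 or E12.5 replicate 1 or 2 (adjusted p from 0.0548 to 0.0748, edgeR).

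Pax7, the factor of fetal myogenic progenitors, moved opposite to Pax3 and measured 0.495, 0.438 and 0.335 RPKM at E11.5 and 0.785, 1.51 and 1.66 at E12.5 (log2 fold change 1.64 ± 0.32, adjusted p = 0.00833, edgeR). All E12.5 libraries lay above all E11.5 libraries for Pax7. Of the 4 myogenic regulatory factors, Myf6, also called Mrf4, showed the largest rise, from 0 to 0.0936 RPKM at E11.5 and 0.397 to 0.599 at E12.5 (log2 fold change 3.59 ± 0.80, adjusted p = 0.0127, edgeR), and was at 5.08 without E11.5 replicate 3. Myod1, which commits cells to muscle, measured 15, 15.5 and 8.40 RPKM at E11.5 and 21.9, 27.4 and 21.7 at E12.5. Myog, which drives terminal differentiation, measured 24.4, 27.4 and 10.4 RPKM at E11.5 and 58.8, 78.7 and 66.8 at E12.5. Both passed (0.87 ± 0.23 and 1.71 ± 0.37), with E11.5 replicate 3 lowest of all libraries for each. Myod1 was lost without E11.5 replicate 1 or E12.5 replicate 1, 2 or 3 (adjusted p from 0.0574 to 0.0979, edgeR). Myog was lost without E11.5 replicate 1 or E12.5 replicate 1, 2 or 3 (adjusted p from 0.0572 to 0.106, edgeR). Other regulators that rose included Mef2c, Dmrt2 (2.01-fold), Megf10 (1.96-fold) and Eya2 (1.80-fold), the last 3 being genes of myogenic progenitors.

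**Figure D2:**
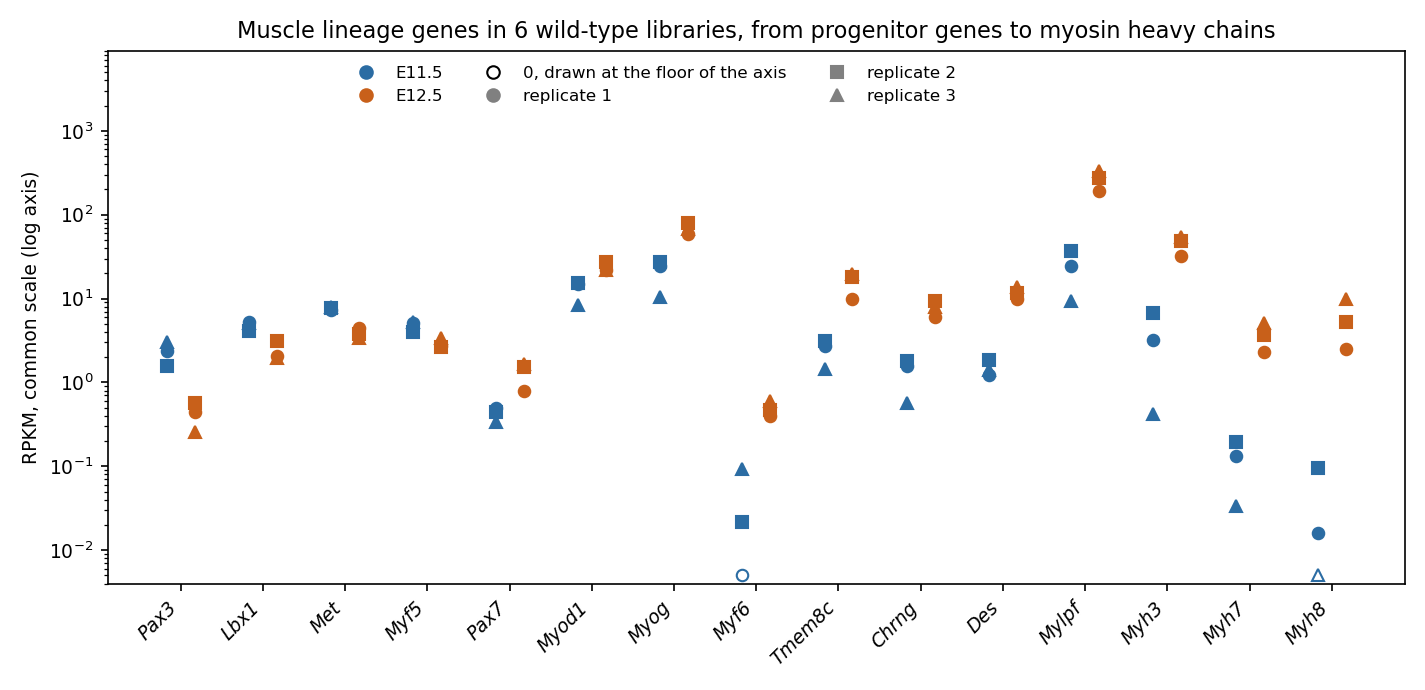
Levels of 15 muscle lineage genes in the 6 libraries (RPKM on the common scale, log axis), ordered from progenitor genes on the left to myosin heavy chains on the right. Blue points are E11.5, orange points E12.5, the shape gives the replicate, and open symbols are libraries at 0. Pax3, Lbx1, Met and Myf5 lie lower at E12.5, and from Pax7 on every gene lies higher there, with E11.5 replicate 3 (blue triangles) often lowest.

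Sarcomere and contraction genes had a median of 3.14. Of 42 tested, 39 rose, and Myh3, Ttn and Neb did not pass. Ttn and Neb, giant filament proteins, both passed without E11.5 replicate 2 (adjusted p = 0.0367 and 0.0283, edgeR) and without E11.5 replicate 3 (adjusted p = 0.0258 and 0.0175, edgeR). The summed level was 384, 495 and 290.2 RPKM at E11.5 and 1419.5, 1984 and 2234 at E12.5. Rises numbered 23 without E11.5 replicate 1, 25 without E12.5 replicate 2 and 24 without E12.5 replicate 3. Des, the muscle intermediate filament desmin, measured 1.24, 1.86 and 1.41 RPKM at E11.5 and 10.002, 11.49 and 13.6 at E12.5. Its libraries were tight at both stages, and the rise was 7.77-fold (log2 fold change 2.96 ± 0.18, adjusted p = 0.000358, edgeR). Myl4, the embryonic atrial myosin light chain, measured 2.13, 3.04 and 0.252 RPKM at E11.5 and 44.6, 79.7 and 88.3 at E12.5 (log2 fold change 5.28 ± 0.73, adjusted p = 0.00905, edgeR). Myom2, a protein of the sarcomeric M band, measured 0.0707, 0.0951 and 0.0513 RPKM at E11.5 and 1.62, 2.16 and 3.84 at E12.5 (log2 fold change 5.12 ± 0.41, adjusted p = 0.00110, edgeR). The troponins Tnnc2, Tnnt3 and Tnni1 rose 18.1-fold, 13.6-fold and 11.7-fold, and the thin filament tropomyosins Tpm2 and Tpm1 2.66-fold and 1.90-fold. Without E11.5 replicate 2, Myl4 was at 5.88, Tnnc2 at 4.76 and Tnnt3 at 4.504, against 5.28, 4.18 and 3.76 with all libraries (log2 fold changes). Tpm1, whose products also serve non-muscle cells, was already at 203 to 230.5 RPKM at E11.5. Actc1, the cardiac alpha-actin of embryonic muscle, measured 49.5, 72.4 and 14.3 RPKM at E11.5 and 264, 365 and 394 at E12.5. Actc1 passed (log2 fold change 2.91 ± 0.65, adjusted p = 0.0351, edgeR) but was lost without E11.5 replicate 1 or E12.5 replicate 1, 2 or 3 (adjusted p from 0.0813 to 0.122, edgeR).

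Of 13 myosin heavy chains tested, a list added after values were seen, 8 rose, with a median of 3.69. Myh3, the embryonic chain, measured 3.21, 6.72 and 0.416 RPKM at E11.5 and 31.9, 48.6 and 53.5 at E12.5 and did not pass (log2 fold change 3.69 ± 1.01, adjusted p = 0.0619, edgeR), with E11.5 replicate 3 far below the other libraries. Myh3 did pass without that library (3.14, adjusted p = 0.0192, edgeR), without the robust step (adjusted p = 0.00967, edgeR), with 12 libraries in the fit (adjusted p = 0.0157, edgeR) and with DESeq2 (adjusted p = 0.00125). It was at 4.62 without E11.5 replicate 2 and did not pass (adjusted p = 0.0595, edgeR). Myh8, the perinatal chain, measured 0.0161, 0.0950 and 0 RPKM at E11.5 and 2.53, 5.28 and 9.86 at E12.5 (log2 fold change 7.26 ± 1.03, adjusted p = 0.0100, edgeR), and was at 9.41 without E11.5 replicate 2 and 6.64 without E12.5 replicate 3. Myh7, the slow chain, measured 0.131, 0.197 and 0.0333 RPKM at E11.5 and 2.32, 3.66 and 5.11 at E12.5 (log2 fold change 4.92 ± 0.58, adjusted p = 0.00442, edgeR). Myh2, an adult fast chain, had no fragment at E11.5 and 124 at E12.5, at least 53.2-fold higher against the same floor (adjusted p = 0.00341, edgeR), and its E12.5 level of 0.134 to 0.287 RPKM remained low beside that of Myh3.

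Of 14 genes of myoblast fusion and the neuromuscular junction, 13 rose, with a median of 2.18, and Lrp4 did not pass (0.13 ± 0.09). Tmem8c, the fusion protein myomaker, measured 2.71, 3.12 and 1.43 RPKM at E11.5 and 9.75, 18.3 and 19.7 at E12.5 (log2 fold change 2.71 ± 0.36, adjusted p = 0.00429, edgeR). Chrng, the acetylcholine receptor subunit of fetal muscle, measured 1.58, 1.79 and 0.568 RPKM at E11.5 and 6.01, 9.42 and 7.84 at E12.5 (log2 fold change 2.56 ± 0.40, adjusted p = 0.00561, edgeR). The stages did not overlap for either gene. The kinase Musk, which gathers receptors under the nerve, rose 6.56-fold, the scaffold Rapsn 5.07-fold and the synaptic enzyme Ache 5.23-fold (adjusted p = 0.00579, 0.00390 and 0.00829, edgeR). The log2 fold change of Ache was 2.39, and 3.02 without E11.5 replicate 3. Chrna1, the receptor subunit that binds acetylcholine, rose 5.34-fold and was lost without E11.5 replicate 1 (adjusted p = 0.0508, edgeR).

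Promoters of 3 rising muscle genes, Chrna1 among them with the exception just given, are shown because myogenic bHLH factors such as MyoD and myogenin are known to bind E-boxes, and the E-box CAGCTG stands close to their start sites. Each is the 250 bases before the RefSeq start site (GRCm38.p6), 5′ to 3′ on the gene's strand, with CAGCTG in capitals. Chrng lies on the forward strand at chr1:87205561-87205810, Chrna1 on the reverse strand at chr2:73580339-73580588 and Des on the forward strand at chr1:75360042-75360291.
Chrng: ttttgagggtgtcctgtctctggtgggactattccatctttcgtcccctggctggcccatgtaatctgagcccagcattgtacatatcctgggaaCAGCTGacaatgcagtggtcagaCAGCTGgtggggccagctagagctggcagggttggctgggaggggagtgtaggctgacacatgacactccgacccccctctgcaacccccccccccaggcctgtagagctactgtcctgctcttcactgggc
Chrna1: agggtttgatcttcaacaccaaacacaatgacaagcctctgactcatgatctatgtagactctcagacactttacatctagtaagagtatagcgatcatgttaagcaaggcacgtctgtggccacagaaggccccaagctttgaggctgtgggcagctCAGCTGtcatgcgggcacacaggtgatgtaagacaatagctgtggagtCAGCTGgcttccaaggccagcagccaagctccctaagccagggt
Des: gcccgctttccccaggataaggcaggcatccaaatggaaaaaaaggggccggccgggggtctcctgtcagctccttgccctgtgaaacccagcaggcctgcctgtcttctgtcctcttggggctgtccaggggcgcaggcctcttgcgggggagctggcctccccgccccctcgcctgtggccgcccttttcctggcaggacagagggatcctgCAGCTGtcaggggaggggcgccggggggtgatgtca
In Chrng the 2 matches begin 155 and 132 bases before the start site, in Chrna1 92 and 44 bases and in Des 36 bases. Of the 11053 tested genes matched to a promoter, 14.8% held CAGCTG on either strand, against 15 of the 34 sarcomere genes with a promoter (44.1%), 3 of 7 fusion and junction genes and 1 of 15 myogenic regulators. At least 2 matches were found in 1.25% of tested genes. The wider E-box CANNTG, which includes CAGCTG, was in 62.1% of tested promoters and 85.3% of those of sarcomere genes. TATAAA was in 8.06% and 23.5%. A match describes letters in the window and says nothing of whether a factor was bound. The search was chosen with the stage changes known.

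Tendon and muscle connective tissue genes split. Of 17 tested, 9 rose and 1 fell, with a median of 1.53, and 4 rose without E11.5 replicate 3. Scx, the transcription factor of tendon progenitors, measured 52.9, 40.3 and 45.2 RPKM at E11.5 and 41.4, 44.5 and 34.7 at E12.5 and did not pass (log2 fold change -0.20 ± 0.13, adjusted p = 0.270, edgeR). Mkx, a homeodomain factor of tendon maturation, measured 5.80, 8.74 and 6.08 RPKM at E11.5 and 17.1, 17.5 and 25.1 at E12.5 (log2 fold change 1.53 ± 0.21, adjusted p = 0.00429, edgeR), with every E12.5 library above every E11.5 library. Fmod, the collagen-binding proteoglycan fibromodulin, rose 4.66-fold (3.19 to 5.77 RPKM at E11.5 and 12.2 to 29.2 at E12.5). Tnmd, the mature tendon marker tenomodulin, measured 0.0858, 0.0808 and 0.0872 RPKM at E11.5 and 1.38, 2.76 and 18 at E12.5. Its 85.4-fold rise passed (log2 fold change 6.42 ± 1.34, adjusted p = 0.0222, edgeR). Without E12.5 replicate 3, its highest library, it was at 4.55 and passed (adjusted p = 0.00204, edgeR). Its call was lost without E11.5 replicate 1, 2 or 3 (adjusted p from 0.0651 to 0.0784, edgeR).

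Fibrous extracellular matrix genes rose in 23 of 30 cases, with a median of 1.56, and numbered 10 without E11.5 replicate 1, 14 without E11.5 replicate 3 and 13 without E12.5 replicate 2. The summed level was 1228, 1383 and 1126 RPKM at E11.5 and 1957, 2349 and 3389 at E12.5, so that E12.5 replicate 3 held the most. Postn, the matricellular protein periostin, measured 5.82, 11.7 and 9.57 RPKM at E11.5 and 37.6, 52.7 and 90.8 at E12.5 (log2 fold change 2.75 ± 0.44, adjusted p = 0.0126, edgeR). Col3a1, the collagen of loose connective tissue, measured 189.5, 210.4 and 183 RPKM at E11.5 and 328, 380.4 and 539 at E12.5 (log2 fold change 1.10 ± 0.17, adjusted p = 0.00561, edgeR). Both had stages that did not overlap, with replicate 3 highest at E12.5. Thbs2 rose 7.02-fold, Sparc 3.30-fold, Col5a1 2.58-fold and Col1a2 1.92-fold. Dcn, the proteoglycan decorin, measured 8.80, 13 and 6.09 RPKM at E11.5 and 42.9, 64.6 and 151 at E12.5 (log2 fold change 3.21 ± 0.62, adjusted p = 0.0244, edgeR) and was lost without E11.5 replicate 1 or 3 or E12.5 replicate 2 (adjusted p from 0.0639 to 0.0802, edgeR). Without E12.5 replicate 3 it was at 2.51.

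**Figure D3:**
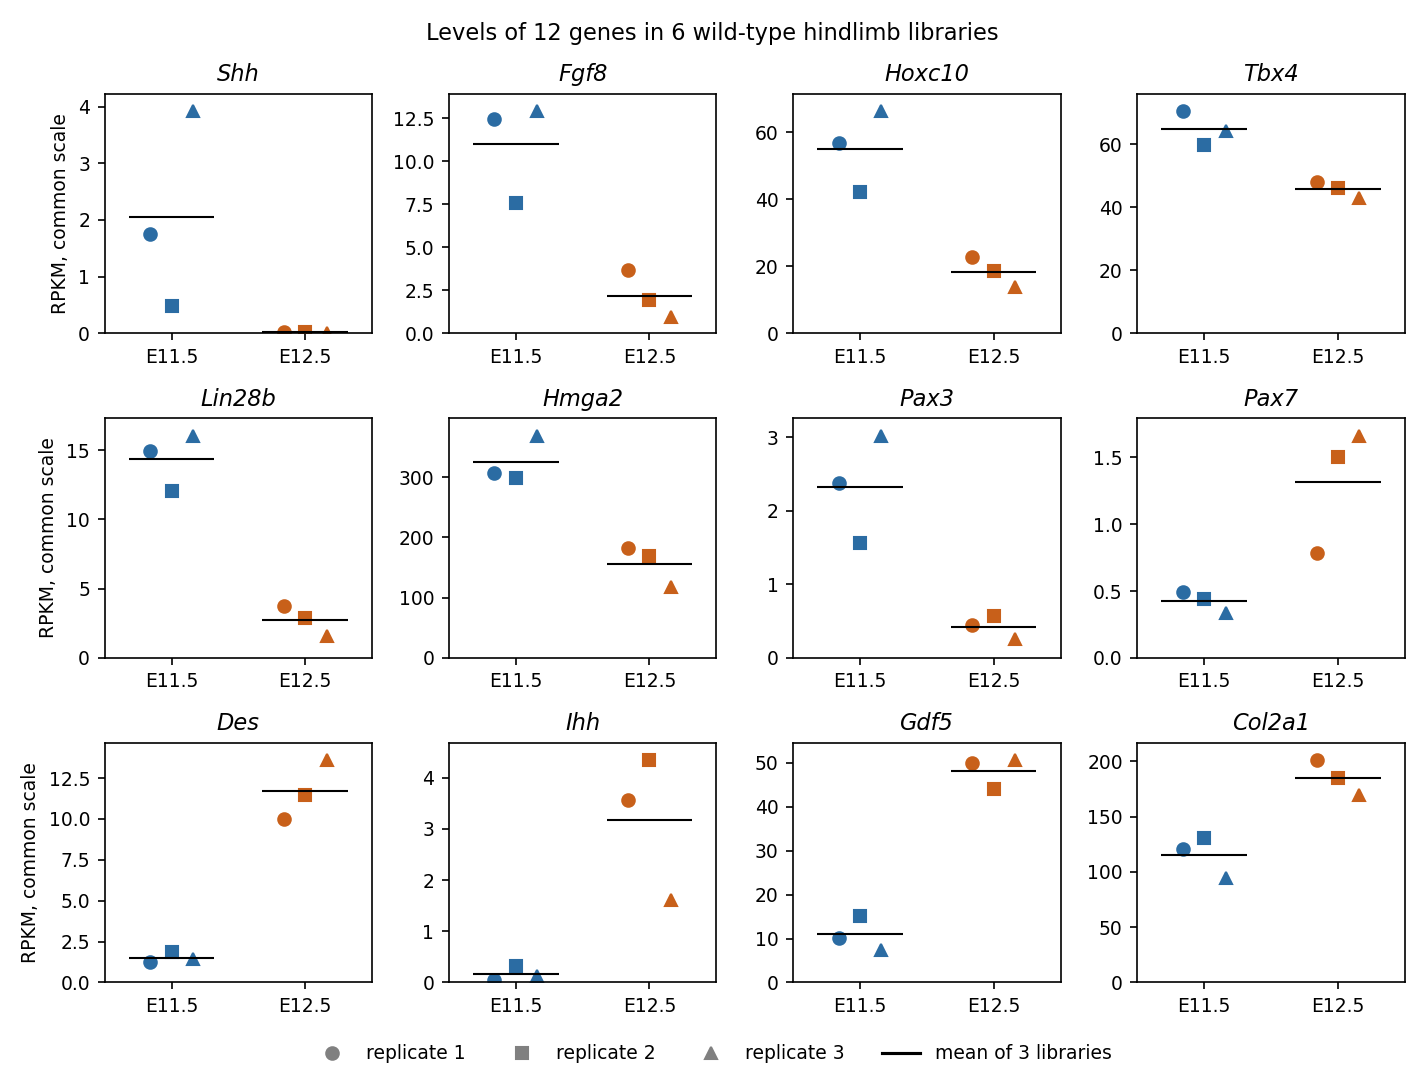
Levels of 12 genes in the 6 libraries (RPKM on the common scale, each axis from 0), E11.5 in blue and E12.5 in orange, with the replicate given by the shape and the mean of 3 libraries by the line. The top row holds patterning genes, the middle row heterochronic and myogenic progenitor genes and the bottom row muscle, cartilage and joint genes. No E12.5 library overlaps an E11.5 library in any panel, as held for 46.1% of all genes tested. The 12 genes are a selection, and genes that overlapped, such as Sox9 and Pitx1, are not plotted.

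Shh, the signal of the posterior margin, was nearly gone by E12.5. It measured 1.75, 0.486 and 3.92 RPKM at E11.5 and 0.0305, 0.0282 and 0.00938 at E12.5, where 2, 2 and 1 fragments were counted. The E11.5 libraries differed among themselves, with replicate 2 lowest, but each lay far above every E12.5 library. Among genes that passed, did not overlap between stages and had a mean of at least 1 RPKM at either stage, this was the largest fall (log2 fold change -6.53 ± 1.01, adjusted p = 0.00612, edgeR). Without E11.5 replicate 3 it was -5.66. Grem1, the BMP antagonist that links the posterior signal to the ridge, measured 16.7, 11.3 and 17.6 RPKM at E11.5 and 4.91, 5.25 and 5.16 at E12.5 (log2 fold change -1.57 ± 0.18, adjusted p = 0.00241, edgeR). Gli1, a transcription factor that reports pathway activity, measured 19.2 ± 1.57 RPKM at E11.5 and 17 ± 0.385 at E12.5 and did not pass (log2 fold change -0.18 ± 0.08, adjusted p = 0.139, edgeR). Ptch1, the main receptor and also a target, measured 19.95 ± 1.35 RPKM at E11.5 and 17.5 ± 0.989 at E12.5 and did not pass either (log2 fold change -0.19 ± 0.08, adjusted p = 0.120, edgeR). Ihh, named above with cartilage, rose over the same interval.

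Of 17 hedgehog and posterior limb genes tested, 7 rose and 4 fell, all 11 in each analysis without 1 library. Hhip, a membrane protein that sequesters the ligand, rose 2.90-fold (log2 fold change 1.54 ± 0.26, adjusted p = 0.00624, edgeR). The coreceptors Gas1, Boc and Cdon rose 1.42-fold, 1.39-fold and 1.75-fold, and the transcription factors Gli3 and Gli2 1.90-fold and 1.36-fold. Gli3, which acts mainly as the repressor of the pathway when ligand is absent, measured 17.2, 20.5 and 16.2 RPKM at E11.5 and 30.01, 34.1 and 38.4 at E12.5 (log2 fold change 0.93 ± 0.12, adjusted p = 0.00270, edgeR). Sall1, a zinc finger factor of the limb, also fell (-0.67 ± 0.11, adjusted p = 0.00547, edgeR).

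Ridge genes moved in both directions. Of 16 tested, 5 rose and 3 fell, against 14.7% and 10.6% of all genes tested. Rises numbered 2 without E11.5 replicate 3 or E12.5 replicate 2 and 3 without E12.5 replicate 3. Fgf8, the main growth factor of the ridge, measured 12.47, 7.57 and 12.9 RPKM at E11.5 and 3.66, 1.91 and 0.953 at E12.5 (log2 fold change -2.32 ± 0.49, adjusted p = 0.0148, edgeR). The stages did not overlap, and the call was lost without E11.5 replicate 1 or E12.5 replicate 2 (adjusted p from 0.0511 to 0.0696, edgeR). Without E12.5 replicate 1 the value was -2.97. Sp8, a transcription factor needed for Fgf8, measured 2.69, 2.01 and 2.62 RPKM at E11.5 and 1.31, 1.32 and 1.31 at E12.5 (log2 fold change -0.89 ± 0.17, adjusted p = 0.00755, edgeR). Rspo2, an enhancer of WNT signalling made by the ridge, fell 2.50-fold (log2 fold change -1.32 ± 0.28, adjusted p = 0.0114, edgeR). On the rising side, Dlx6, named above with the osteogenesis genes, had the largest rise of the list (log2 fold change 1.78). Dlx5 and Wnt3 also passed as higher, and Bmp7, also made in the ridge and elsewhere, rose 1.37-fold. Of the 5 rises, 2 passed without each library in turn. The summed level of surface ectoderm genes, which the cells of the ridge share, was 228, 249 and 209 RPKM at E11.5 and 304, 419 and 581 at E12.5, higher in every E12.5 library.

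In the mesenchyme that responds to the ridge, 5 of 18 genes fell and 1 rose, against 10.6% and 14.7% of all genes tested. The 5, of which Lin28b is described below, fell in each analysis without 1 library. Dusp6, the phosphatase induced by FGF signalling, measured 102, 72.4 and 95.6 RPKM at E11.5 and 42.6, 37.5 and 33.9 at E12.5 (log2 fold change -1.24 ± 0.14, adjusted p = 0.00266, edgeR). Etv4, an FGF-induced transcription factor, measured 26.2, 19.3 and 22.9 RPKM at E11.5 and 12.1, 11.6 and 12.1 at E12.5 (log2 fold change -0.93 ± 0.12, adjusted p = 0.00268, edgeR). The stages did not overlap for either. Il17rd, another inhibitor induced by FGF, fell 1.36-fold, and Cyp26b1, the distal enzyme that degrades retinoic acid, 2.11-fold. The other induced genes Spry2, Spry4 and Etv5 did not pass (0.07 ± 0.13, -0.23 ± 0.13 and -0.36 ± 0.13), nor did Fgf10, the mesenchymal growth factor that maintains the ridge, at 7.29, 7.29 and 7.2 RPKM at E11.5 and 5.57, 5.05 and 10.5 at E12.5. Fgf10 passed as lower without E12.5 replicate 3 (-0.47, adjusted p = 0.0179, edgeR), and Etv5 without E11.5 replicate 2 or E12.5 replicate 3 (adjusted p = 0.0251 and 0.0357, edgeR). Msx1 passed as higher (0.56 ± 0.16) and was lost without E11.5 replicate 1, 2 or 3 or E12.5 replicate 1 or 2 (adjusted p from 0.0651 to 0.118, edgeR).

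Hindlimb identity genes included 6 that fell among 11 tested, with a median of -0.51: Tbx4, Isl1 and Hoxc8 to Hoxc11. Tbx4, which carries hindlimb outgrowth downstream of Pitx1, measured 70.5, 59.6 and 64.2 RPKM at E11.5 and 47.9, 46.2 and 42.9 at E12.5. The lowest E11.5 library lay above the highest E12.5 library, and the fall was 1.42-fold (log2 fold change -0.51 ± 0.08, adjusted p = 0.00522, edgeR). Pitx1 itself measured 141, 114 and 111 RPKM at E11.5 and 112, 111 and 43.7 at E12.5. Replicates 1 and 2 lay at like levels at both stages, E12.5 replicate 3 lay far lower, and Pitx1 did not pass (log2 fold change -0.46 ± 0.38, adjusted p = 0.424, edgeR). Isl1, an upstream factor of hindlimb initiation, measured 7.21, 6.49 and 11.6 RPKM at E11.5 and 3.84, 2.85 and 1.69 at E12.5 (log2 fold change -1.61 ± 0.34, adjusted p = 0.0150, edgeR) and was lost without E12.5 replicate 2 (adjusted p = 0.0629, edgeR).

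HoxC genes fell except at the 5′ end of the cluster. Hoxc10, which marks the hindlimb, measured 56.9, 42.3 and 66.3 RPKM at E11.5 and 22.7, 18.6 and 13.9 at E12.5. Every E12.5 library lay below every E11.5 library, a fall of 3.005-fold (log2 fold change -1.59 ± 0.22, adjusted p = 0.00543, edgeR). Of 9 HoxC genes tested, 7 fell, from Hoxc4 (-1.22 ± 0.24) to Hoxc11 (-0.71 ± 0.21), while Hoxc12 (1.15 ± 0.46) and Hoxc13 (0.37 ± 0.22) did not pass. Hoxc12 passed as higher without E11.5 replicate 2 (1.63, adjusted p = 0.0442, edgeR). Hoxc4, Hoxc5, Hoxc6, Hoxc8, Hoxc9 and Hoxc10 fell in each analysis without 1 library, and Hoxc11 was lost without E11.5 replicate 1 or 3 or E12.5 replicate 2 or 3 (adjusted p from 0.0784 to 0.128, edgeR).

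In the other clusters, 2 of 11 HoxA, 4 of 8 HoxB and 5 of 8 HoxD genes fell, against 10.6% of all genes tested. The HoxA count was 4 without E12.5 replicate 1. The HoxB count was 1 without E11.5 replicate 1 or E12.5 replicate 1 or 2 and 2 without E11.5 replicate 3. The HoxD count was 1 without E11.5 replicate 1 or 3 or E12.5 replicate 2 and 2 without E11.5 replicate 2. Hoxa9 measured 40.0, 38.3 and 34.7 RPKM at E11.5 and 23.7, 20.9 and 17.9 at E12.5 (log2 fold change -0.85 ± 0.11, adjusted p = 0.00302, edgeR), and Hoxa5 (-0.93 ± 0.18), Hoxb3 (-1.74 ± 0.40) and Hoxd4 (-1.80 ± 0.19) also fell in each analysis without 1 library. The genes of the autopod, the future foot, did not pass. Hoxd13 measured 178, 202 and 159.9 RPKM at E11.5 and 260.4, 204 and 176 at E12.5. Hoxa13 measured 35.5, 33.9 and 29.0 RPKM at E11.5 and 38.7, 35.9 and 30.6 at E12.5. Neither passed (0.24 ± 0.15 and 0.10 ± 0.12, adjusted p = 0.253 and 0.577, edgeR). Hoxa11, the gene of the middle limb segment, measured 40.4 ± 3.18 RPKM at E11.5 and 39.7 ± 3.16 at E12.5 (-0.03 ± 0.09), and its antisense partner Hoxa11os cannot be told apart from it if strand was not used in counting. The 4 cluster lists were added after values were seen.

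**Figure D4:**
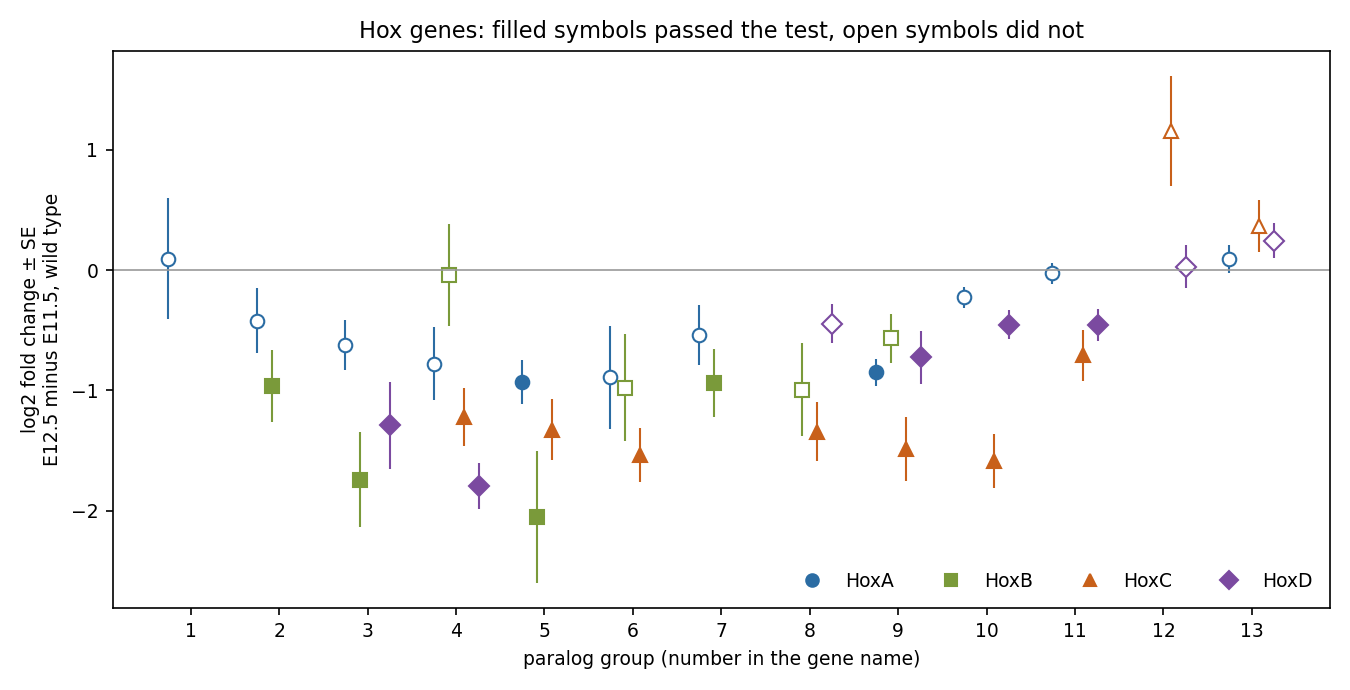
Fitted log2 fold change ± SE (E12.5 minus E11.5, wild type) of each tested Hox gene against its paralog group, by cluster. Filled symbols passed the test and open symbols did not. Changes sit below 0 in most groups up to 11, and the genes of groups 12 and 13 lie at or above 0 as open symbols.

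Retinoic acid and proximal limb genes rose in 4 of 16 cases and fell in 3, against 14.7% and 10.6% of all genes tested. Aldh1a2, the enzyme that makes retinoic acid, measured 24.5, 36.1 and 33.7 RPKM at E11.5 and 81.9, 101 and 92.7 at E12.5 (log2 fold change 1.55 ± 0.15, adjusted p = 0.00205, edgeR), with the lowest E12.5 library far above the highest E11.5 library. Dhrs3, an enzyme that lowers retinal and is induced by retinoic acid, rose 2.02-fold, and the carrier protein Crabp1 1.72-fold. Meis1 and Meis2, the homeodomain factors of the proximal limb, passed as lower (-2.03 ± 0.43 and -1.51 ± 0.35). Meis2 measured 17.9, 11.8 and 30.6 RPKM at E11.5 and 7.13, 7.07 and 6.97 at E12.5, so E11.5 replicate 3 was the highest, and it was lost without E11.5 replicate 1 or E12.5 replicate 1, 2 or 3 (adjusted p from 0.0611 to 0.133, edgeR), as Meis1 was without E11.5 replicate 1 or E12.5 replicate 1, 2 or 3 (adjusted p from 0.0518 to 0.124, edgeR). Shox2, a proximal homeodomain factor and the other fall of the list (-1.08 ± 0.27), was lost without E11.5 replicate 1, 2 or 3 or E12.5 replicate 1 (adjusted p from 0.0647 to 0.0911, edgeR).

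Of 12 anterior limb genes, 5 fell, with a median of -0.89. Asb4, a ubiquitin ligase adaptor of anterior limb mesenchyme, measured 133, 112 and 177 RPKM at E11.5 and 40.7, 30.5 and 20.9 at E12.5 (log2 fold change -2.20 ± 0.29, adjusted p = 0.00635, edgeR). Alx4, a homeodomain factor of the anterior bud, measured 11, 9.21 and 16.9 RPKM at E11.5 and 5.13, 4.85 and 5.29 at E12.5 (log2 fold change -1.28 ± 0.21, adjusted p = 0.00737, edgeR). The stages did not overlap for either, and E11.5 replicate 3 was highest for both. Zic2, a zinc finger factor, fell 2.24-fold. Sall4, which belongs to the heterochronic list as well, passed as lower and was lost without E12.5 replicate 2 (adjusted p = 0.0622, edgeR).

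Limb T-box genes fell with them, each in every analysis without 1 library. Tbx18, a gene of the limb mesenchyme, measured 44.9, 46.4 and 41.4 RPKM at E11.5 and 26.5, 25.3 and 22.2 at E12.5 (log2 fold change -0.84 ± 0.09, adjusted p = 0.00195, edgeR). Tbx15, a relative of Tbx18, fell 1.67-fold. Tbx2 and Tbx3, made at the anterior and posterior margins, fell 1.90-fold and 1.88-fold (adjusted p = 0.00976 and 0.00266, edgeR). The limb mesenchyme marker list as a whole kept a summed level of 881, 872 and 859 RPKM at E11.5 and 859, 879 and 817 at E12.5, and 6 of its 12 genes fell and 2 rose. Both rises were lost without single libraries, Msx1 without E11.5 replicate 1, 2 or 3 or E12.5 replicate 1 or 2 (adjusted p from 0.0651 to 0.118, edgeR) and Pdgfra without E11.5 replicate 1 or 3 or E12.5 replicate 1, 2 or 3 (adjusted p from 0.0502 to 0.133, edgeR).

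Heterochronic genes, the RNA-binding and chromatin genes whose decline marks developmental age, fell in 12 of 14 cases, with a median of -0.86. The falls numbered 11 to 13 when 1 library was left out. Lin28b, the RNA-binding protein that blocks maturation of the let-7 microRNAs, measured 14.9, 12.1 and 16 RPKM at E11.5 and 3.74, 2.89 and 1.61 at E12.5. Every E11.5 library lay far above every E12.5 library, a fall of 5.27-fold (log2 fold change -2.40 ± 0.31, adjusted p = 0.00547, edgeR). Its relative Lin28a measured 1.19, 0.779 and 2.001 RPKM at E11.5 and 0.241, 0.0635 and 0.0352 at E12.5 (log2 fold change -3.62 ± 0.67, adjusted p = 0.00873, edgeR), and was at -4.77 without E12.5 replicate 1. Trim71, a let-7 target and RNA-binding ubiquitin ligase, measured 2.49, 1.99 and 2.52 RPKM at E11.5 and 0.686, 0.486 and 0.426 at E12.5 (log2 fold change -2.14 ± 0.22, adjusted p = 0.00195, edgeR). In all 3, no E12.5 library reached an E11.5 library.

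Hmga2, a chromatin protein of growing embryonic tissue and a let-7 target, measured 307, 298 and 368 RPKM at E11.5 and 183, 168 and 118 at E12.5 (log2 fold change -1.05 ± 0.16, adjusted p = 0.00539, edgeR). It had the highest level of the list, and its relative Hmga1 fell 1.67-fold. Arid3b and Arid3a fell 2.54-fold and 1.98-fold, the DNA methyltransferase Dnmt3b 1.66-fold, and the messenger-binding proteins Igf2bp2 and Igf2bp3 1.36-fold and 1.38-fold. Myc (0.08 ± 0.15) and Mycn (-0.63 ± 0.20) did not pass, though Mycn passed as lower without E12.5 replicate 1 or 3 (adjusted p = 0.0330 and 0.0210, edgeR). Sall4, a pluripotency factor, fell with them (log2 fold change -2.67 ± 0.50, adjusted p = 0.0122, edgeR), with the exception given above, and Igf2bp1 (-0.68 ± 0.15) was lost without E11.5 replicate 1 or 3 (adjusted p from 0.0510 to 0.0534, edgeR).

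The let-7 family is shown because it is the known partner of Lin28 and its seed defines the sites searched for below. RefSeq (GRCm38.p6) holds 11 entries of the family with 9 distinct mature 5p sequences, including miR-98, and all share the seed GAGGUAG at bases 2 to 8. Of these, 4 are printed 5′ to 3′ with the seed in capitals.
let-7a-5p: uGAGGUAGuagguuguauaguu
let-7d-5p: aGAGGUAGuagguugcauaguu
let-7g-5p: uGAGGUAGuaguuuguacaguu
miR-98-5p: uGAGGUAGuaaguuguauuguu
The match searched in the 3′ UTR was CTACCTCA, the reverse complement of the seed followed by A. In GENCODE M21 (GRCm38), 9 of the 14 heterochronic genes held it in the 3′ UTR of their longest coding transcript. Trim71 had 4 matches, Igf2bp1 had 3, Lin28a had 2, and Lin28b, Hmga2, Arid3a, Igf2bp2, Igf2bp3 and Sall4 had 1 each. Arid3b, Dnmt3b, Hmga1, Myc and Mycn had none in this window. A window of 30 bases around 1 match of each of 4 genes follows, 5′ to 3′ on the gene's strand with the match in capitals. All 4 lie on the reverse strand, at chr10:45381011-45381040 for Lin28b, chr10:120364213-120364242 for Hmga2, chr4:134005178-134005207 for Lin28a and chr9:114512461-114512490 for Trim71.
Lin28b: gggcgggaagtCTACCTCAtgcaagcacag
Hmga2: acattcaatttCTACCTCAgcatcagttgg
Lin28a: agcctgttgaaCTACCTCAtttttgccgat
Trim71: ttgcctaagtcCTACCTCAgcttaaatttt

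Over the 13630 tested genes with a 3′ UTR, 10.6% of the 13135 without the match fell, 16.9% of the 468 with 1 match and 9 of the 27 with at least 2 (33.3%). Without the heterochronic list, the shares with a match were 15.8% and 25% (6 of 24). The groups differ in 3′ UTR length, with medians of 1122, 2425 and 3550 bases. Among genes with at least 2000 bases, 14.3% of 3777, 19.7% of 274 and 34.8% of 23 fell. Heterochronic genes were kept in these groups, and Trim71, Igf2bp1 and Lin28a are among the 23. All these shares are descriptions of a search chosen after the falls were seen. The let-7 microRNAs themselves were not measured: the libraries were made from mRNA, per the labels, and the 12 let-7 genes listed in the tables were too low to test. Whether let-7 had a part in these falls was not tested.

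Proliferation genes moved by small amounts in 1 direction. Of 26 DNA replication genes, 14 fell, and of 24 mitosis genes, 13 fell, with medians of -0.31 and -0.28 against 0.01 for all genes. The replication count was 5 without E11.5 replicate 1, 4 without E11.5 replicate 3, 6 without E12.5 replicate 2 and 7 without E12.5 replicate 3, and the mitosis count 8 without E11.5 replicate 1 and 6 without E11.5 replicate 3. Pcna, the sliding clamp of DNA polymerase, measured 121, 102 and 134 RPKM at E11.5 and 81.0, 87.7 and 78.9 at E12.5 (log2 fold change -0.53 ± 0.10, adjusted p = 0.00842, edgeR). Bub1, a kinase of the spindle checkpoint, measured 50.9, 48.1 and 59.1 RPKM at E11.5 and 35.2, 30.02 and 30.2 at E12.5 (log2 fold change -0.73 ± 0.10, adjusted p = 0.00346, edgeR). For both, all E12.5 libraries lay below all E11.5 libraries. Rrm1, the large subunit of ribonucleotide reductase, fell 1.37-fold, and the mitotic genes Ccnb1 and Cenpf 1.53-fold and 1.43-fold. Mki67, the proliferation marker Ki-67, measured 64.8, 67.9 and 64.1 RPKM at E11.5 and 56.8, 57.1 and 50.9 at E12.5. Its 1.19-fold fall passed (log2 fold change -0.26 ± 0.08, adjusted p = 0.0382, edgeR) and was lost without E11.5 replicate 1, 2 or 3 or E12.5 replicate 1, 2 or 3 (adjusted p from 0.0636 to 0.0864, edgeR).

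In the list of CDK inhibitors and cell cycle exit genes, 7 of 15 rose, and 4 of 15 without E11.5 replicate 1, 2 or 3 or E12.5 replicate 2. That list also holds the cyclins Ccnd1, Ccnd2 and Ccnd3, so its count is not one of exit genes alone. Cdkn2c, the CDK inhibitor p18, measured 1.95, 1.66 and 1.92 RPKM at E11.5 and 4.22, 4.47 and 7.73 at E12.5 (log2 fold change 1.58 ± 0.29, adjusted p = 0.00709, edgeR). Rbl2, the retinoblastoma relative p130 of resting cells, measured 2.62, 3.01 and 2.62 RPKM at E11.5 and 4.91, 5.43 and 7.01 at E12.5 (log2 fold change 1.07 ± 0.15, adjusted p = 0.00347, edgeR). Cdkn1a, the inhibitor p21 that myoblasts and chondrocytes induce on exit, rose 1.71-fold, and the cyclin Ccnd2 1.45-fold. Cdkn1c, the imprinted inhibitor p57, measured 352, 354 and 319 RPKM at E11.5 and 465, 468 and 362 at E12.5, and its 1.26-fold rise (log2 fold change 0.34 ± 0.11, adjusted p = 0.0482, edgeR) was lost without E11.5 replicate 1, 2 or 3 or E12.5 replicate 1 or 2 (adjusted p from 0.0772 to 0.176, edgeR).

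Among BMP pathway genes, 6 of 20 rose and 2 fell, against 14.7% and 10.6% of all genes tested. Grem1 and Nog, both antagonists, had the largest fall (-1.57) and the largest rise (2.34). Rises numbered 3 without E11.5 replicate 1 or E12.5 replicate 2, and falls 1 without E11.5 replicate 1 or 3. Nog measured 2.22, 2.92 and 0.824 RPKM at E11.5 and 12.4, 9.52 and 8.46 at E12.5 (log2 fold change 2.34 ± 0.43, adjusted p = 0.0106, edgeR). Among the ligands, Bmp2 and Bmp7 (0.46 ± 0.09) passed as higher, Bmp2 with a larger change than Msx2. Of the 6 rises of the list, 3 passed without each library in turn. Bmp4 passed as lower (-0.55 ± 0.13) and was lost without E11.5 replicate 1 or 3 (adjusted p from 0.0536 to 0.0684, edgeR). The target Id3, which inhibits differentiation, passed as higher (0.45 ± 0.10) and was lost without E11.5 replicate 1 or 3 or E12.5 replicate 2 (adjusted p from 0.0512 to 0.0621, edgeR).

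Of 29 WNT pathway genes, 12 rose and 3 fell, against 14.7% and 10.6% of all genes tested. Rises numbered 5 without E11.5 replicate 1 or 3 and 7 without E12.5 replicate 2 or 3. Dkk2, a secreted antagonist, measured 7.95, 10.4 and 5.64 RPKM at E11.5 and 23.3, 26.1 and 45.6 at E12.5 (log2 fold change 1.99 ± 0.35, adjusted p = 0.0129, edgeR). Wif1, another secreted inhibitor, rose 1.65-fold and the receptor Fzd9 2.37-fold. Tcf7, a transcription factor and target of the pathway, measured 13.7, 11.7 and 13.6 RPKM at E11.5 and 8.23, 6.56 and 7.40 at E12.5 (log2 fold change -0.81 ± 0.12, adjusted p = 0.00421, edgeR). Frzb, a secreted antagonist of early cartilage and joints, measured 66.0, 56.3 and 53.7 RPKM at E11.5 and 20.9, 12.7 and 6.15 at E12.5 (log2 fold change -2.15 ± 0.46, adjusted p = 0.0271, edgeR) and was lost without E11.5 replicate 1, 2 or 3 or E12.5 replicate 2 (adjusted p from 0.0538 to 0.107, edgeR).

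Among imprinted growth genes, 5 of 21 rose and 3 fell, rises numbering 1 without E11.5 replicate 1 or 3 and 2 without E12.5 replicate 1 or 2. Peg10, a paternally expressed gene derived from a retrotransposon, measured 152, 151 and 209 RPKM at E11.5 and 72.4, 60.3 and 60.7 at E12.5 (log2 fold change -1.41 ± 0.14, adjusted p = 0.00210, edgeR). Dlk1, a paternally expressed inhibitor of differentiation, measured 24.5, 18.1 and 22.4 RPKM at E11.5 and 37.3, 51.3 and 49.95 at E12.5 (log2 fold change 1.083 ± 0.15, adjusted p = 0.00390, edgeR). H19, the most abundant of the list, measured 2302 ± 141 RPKM at E11.5 and 2548 ± 89.1 at E12.5 and did not pass (0.15 ± 0.08). Igf2, its growth factor neighbour, measured 1203 ± 64.0 RPKM at E11.5 and 1182 ± 91.5 at E12.5 and did not pass either (-0.02 ± 0.09). Pmaip1, the apoptosis gene Noxa, fell more than any other of 15 p53 and apoptosis genes, measuring 60.1, 54.7 and 60.9 RPKM at E11.5 and 14.5, 11.48 and 6.36 at E12.5 (log2 fold change -2.45 ± 0.30, adjusted p = 0.00507, edgeR). Of that list 3 rose and 2 fell, and the falls numbered 1 without E11.5 replicate 1, 2 or 3 or E12.5 replicate 2 or 3. Of 19 glycolysis and hypoxia genes, 3 rose and 1 fell, with a median of 0.14. Over all genes tested, 14.7% rose and 10.6% fell, so the counts of this list, of the p53 list and of the imprinted list are description only. The single fall, Gapdh, is uncertain because near-identical copies exist, and was lost without E11.5 replicate 1, 2 or 3 or E12.5 replicate 1, 2 or 3 (adjusted p from 0.0512 to 0.104, edgeR). Rises of the glycolysis and hypoxia list numbered 1 without E11.5 replicate 1 or 3.

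Other cell types were read from their markers. Schwann cell and neural crest genes rose in 8 of 11 cases, with a median of 1.71 and a summed level of 18.7, 24.3 and 17.9 RPKM at E11.5 and 44.2, 61 and 58.2 at E12.5. Sox10, the defining factor of this lineage, measured 1.04, 2.24 and 1.23 RPKM at E11.5 and 4.71, 6.40 and 4.55 at E12.5 (log2 fold change 1.79 ± 0.30, adjusted p = 0.00556, edgeR). Ngfr, the low-affinity neurotrophin receptor, measured 6.95, 7.56 and 5.85 RPKM at E11.5 and 16.1, 20.8 and 19.6 at E12.5 (log2 fold change 1.47 ± 0.13, adjusted p = 0.00110, edgeR). S100b, a calcium-binding protein of glia, lay between 0 and 0.0777 RPKM at E11.5 and between 0.698 and 1.86 at E12.5 (log2 fold change 5.33 ± 0.90, adjusted p = 0.00577, edgeR), and all of its E11.5 fragments were in replicate 2. Fabp7, a fatty acid carrier of early glia, measured 0, 0.285 and 0.352 RPKM at E11.5 and 1.49, 3.002 and 5.21 at E12.5 (log2 fold change 3.90 ± 0.80, adjusted p = 0.0110, edgeR). Of 8 neuron genes tested, 3 rose, and the axonal genes Syt1 and Nefl among them rose 7.2-fold and 3.14-fold from low levels (0.0635 to 0.105 RPKM at E11.5 and 0.464 to 0.718 at E12.5 for Syt1), while Elavl3 and Neurod1, genes of neuronal cell bodies, were too low to test. Dct, of melanoblasts, rose 7.21-fold (log2 fold change 2.85, and 1.97 without E12.5 replicate 3).

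Macrophage genes rose in 10 of 22 cases, with a median of 0.84, and rises numbered 3 without E11.5 replicate 1 or E12.5 replicate 3, 6 without E11.5 replicate 2, 5 without E11.5 replicate 3 and 4 without E12.5 replicate 2. Csf1r, the receptor that macrophages depend on, measured 1.84, 2.68 and 2.33 RPKM at E11.5 and 3.77, 4.49 and 4.06 at E12.5 (log2 fold change 0.85 ± 0.17, adjusted p = 0.00842, edgeR), and C1qc and Trem2 rose 2.51-fold and 2.94-fold. Pf4, listed for both macrophages and platelets, fell 2.58-fold, as did the platelet genes Itga2b (2.90-fold) and Ppbp (4.68-fold). Of 23 endothelial genes tested, 2 rose, against 14.7% of all genes, with a median of 0.18, and Prox1, the factor of lymphatic endothelium, was 1 of them (log2 fold change 1.49 ± 0.30, adjusted p = 0.00887, edgeR). The count was 1 without E11.5 replicate 1 or 3 or E12.5 replicate 3. Among pericyte and smooth muscle genes, 4 of 11 rose and 1 fell. Acta2, the smooth muscle actin that early muscle fibres also make, measured 16.3, 20.3 and 15.3 RPKM at E11.5 and 48.4, 67.3 and 64.1 at E12.5 (log2 fold change 1.79 ± 0.15, adjusted p = 0.00122, edgeR).

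Red blood cell genes other than globins fell in 9 of 12 cases, with a median of -2.27, and falls numbered 5 without E11.5 replicate 1 or E12.5 replicate 1, 2 without E12.5 replicate 2 and 4 without E12.5 replicate 3. Their summed level was 101, 82.0 and 217 RPKM at E11.5 and 63.5, 54.2 and 32.9 at E12.5, highest in E11.5 replicate 3. Klf1, a factor of erythroid precursors, measured 2.49, 1.5 and 4.35 RPKM at E11.5 and 0.680, 0.601 and 0.313 at E12.5 (log2 fold change -2.41 ± 0.47, adjusted p = 0.00818, edgeR). Gata1, which acts with it, fell 5.04-fold (adjusted p = 0.0131, edgeR). Hbb-y, the main embryonic beta-globin, measured 9752, 7223 and 15987 RPKM at E11.5 and 12139, 10684 and 3547 at E12.5 and did not pass (-0.32 ± 0.56). Hbb-b1, an adult beta-globin, measured 357, 344 and 479.9 RPKM at E11.5 and 803, 1244 and 1791 at E12.5. Globin values are uncertain because their genes are near copies of each other. The 11 liver and yolk sac genes tested had adjusted p from 0.0514 for Cubn to 0.179 for Apob (edgeR), though Cubn passed as higher without E12.5 replicate 2 or 3 (adjusted p = 0.0322 and 0.0489, edgeR). Their summed level of 14, 15.2 and 20.1 RPKM at E11.5 and 500.4, 17 and 48.8 at E12.5 was highest in E12.5 replicate 1.

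**Figure D5:**
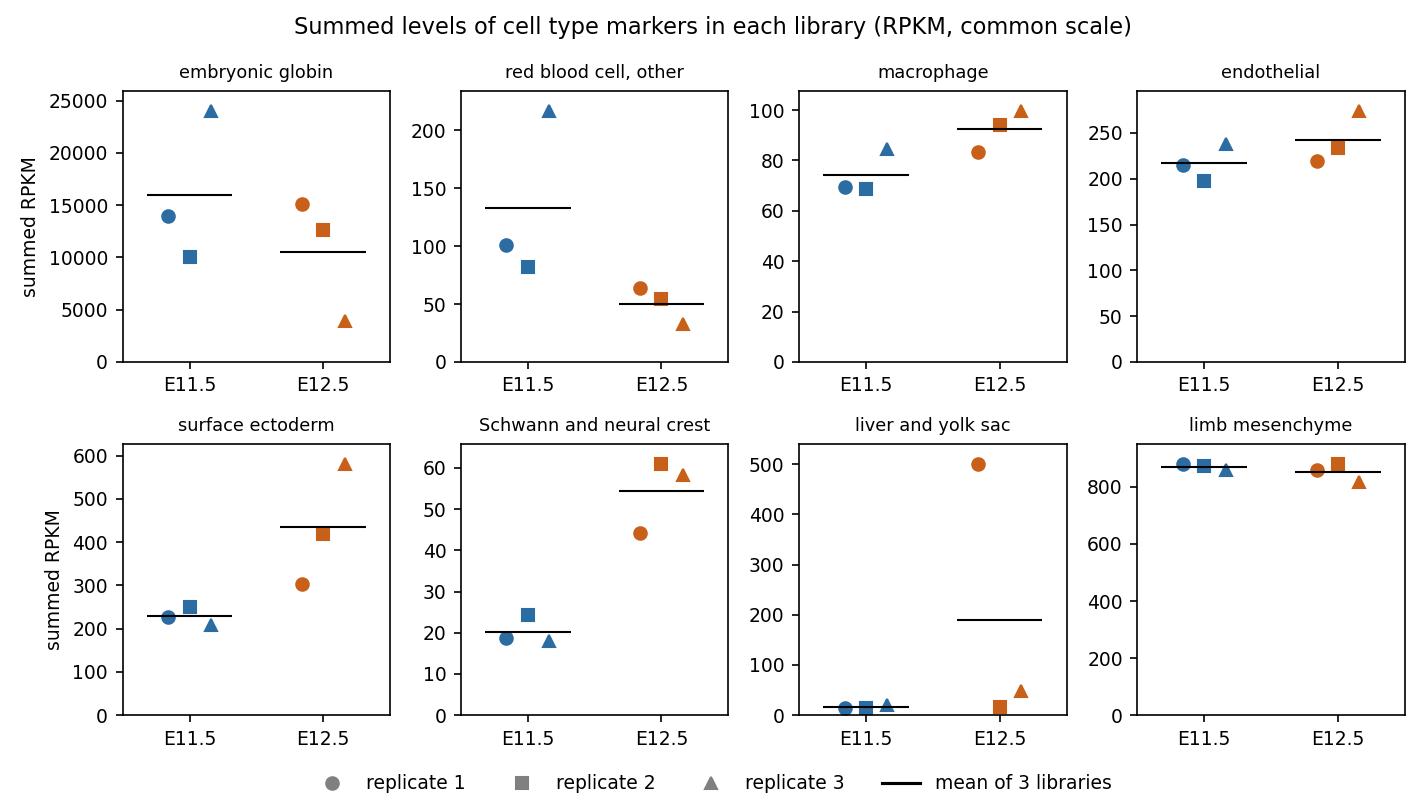
Summed levels of 8 marker lists in each library (RPKM on the common scale, each axis from 0), E11.5 in blue and E12.5 in orange, with the mean of 3 libraries as a line. Schwann and surface ectoderm sums lie higher in every E12.5 library, red blood cell sums lower, the liver and yolk sac sum is 500.4 RPKM in E12.5 replicate 1 against 48.8 or less elsewhere, and the limb mesenchyme sum barely moves.

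Of 22 surface ectoderm genes, 7 rose, 5 of them keratins. Krt15, a basal keratin, measured 6.26, 6.46 and 4.04 RPKM at E11.5 and 17.6, 26.8 and 47.3 at E12.5 (log2 fold change 2.45 ± 0.41, adjusted p = 0.0118, edgeR), and Krt17 rose 2.74-fold. Rises of this list numbered 3 without E11.5 replicate 1 or E12.5 replicate 2, 2 without E11.5 replicate 3, 15 without E12.5 replicate 1 and 4 without E12.5 replicate 3. Krt9, a keratin of palm and sole skin in adults, moved the other way, measuring 1.42, 0.828 and 1.37 RPKM at E11.5 and 0.0950, 0.117 and 0.204 at E12.5 (log2 fold change -3.07 ± 0.41, adjusted p = 0.00318, edgeR).

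Immediate early and stress genes rose in 5 of 14 cases and fell in 1, against 14.7% and 10.6% of all genes tested. Klf4, a transcription factor of skin and connective tissue, measured 1.41, 1.51 and 1.24 RPKM at E11.5 and 3.73, 3.89 and 6.64 at E12.5 (log2 fold change 1.78 ± 0.24, adjusted p = 0.00338, edgeR). Rises of that list numbered 1 without E11.5 replicate 1 or 3, 3 without E12.5 replicate 1 and 2 without E12.5 replicate 2 or 3, and the fall, of the phosphatase gene Dusp1 (-0.36 ± 0.11), was lost without E11.5 replicate 1, 2 or 3 or E12.5 replicate 1, 2 or 3 (adjusted p from 0.0521 to 0.121, edgeR).

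Several of the largest changes belonged to no list. Panx3, a channel protein of prehypertrophic chondrocytes and osteoblasts, had no fragment at E11.5 and 285 at E12.5. It was 122.2-fold higher with the floor of 3 fragments in place of 0 (adjusted p = 0.00661, edgeR), and its exact 95% lower limit was 98.7-fold, for counting error alone. E12.5 replicate 3 held 199 of the fragments of Panx3. 1500015O10Rik had 1 fragment against 214, which is a 275.2-fold ratio (48.9 to 10920 as its exact 95% interval, for counting error alone), and E12.5 replicate 3 held 168 of them. Aspn, the proteoglycan asporin, measured 0.203, 0.180 and 0.0687 RPKM at E11.5 and 3.34, 3.86 and 14.4 at E12.5 (log2 fold change 5.57 ± 0.83, adjusted p = 0.00830, edgeR). Myot, the Z-disc protein myotilin, measured 0.0360, 0.158 and 0.0122 RPKM at E11.5 and 1.80, 3.45 and 4.73 at E12.5 (log2 fold change 5.54 ± 0.70, adjusted p = 0.00379, edgeR). Slc26a7, an anion transporter, measured 0.0221, 0.157 and 0.259 RPKM at E11.5 and 2.92, 3.95 and 11.9 at E12.5 (log2 fold change 5.42 ± 0.90, adjusted p = 0.0112, edgeR). Without E12.5 replicate 3, Aspn was at 4.55 and Slc26a7 at 4.53. Slc26a7 was at 6.06 without E11.5 replicate 3, and Myot at 7.01 without E11.5 replicate 2. On the falling side, Igdcc3, a membrane protein of the immunoglobulin family, passed as lower, with 14.3, 8.38 and 22.5 RPKM at E11.5 and 1.66, 2.32 and 0.801 at E12.5 (log2 fold change -3.26 ± 0.54, adjusted p = 0.0124, edgeR), and was lost without E12.5 replicate 1 (adjusted p = 0.0560, edgeR). Lmx1a, a LIM homeodomain gene, fell 6.49-fold and Cited4, a transcriptional coregulator, 5.95-fold. The log2 fold change of Lmx1a was -2.70, and -2.08 without E11.5 replicate 3.

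Whether these stage changes differed from those of Pitx1 knockout hindlimbs was tested over the 12 libraries of both genotypes. Of 15306 genes tested, 1 passed (0.00653%), and 1582 had an unadjusted p under 0.05 (edgeR). DESeq2 called 113. Pitx1 itself measured 23.2, 17.3 and 20 RPKM (the authors' values) in the E11.5 knockout libraries and 10.8, 13.4 and 11.6 in those of E12.5, against 44.6 to 138 in the 6 wild-type libraries. In simulated data of this design, the test recovered 52% of 50 genes given a 2-fold difference, out of 15306. It recovered 72% of 50 given a 3-fold and 76% of 50 given a 4-fold difference, so differences of each size could be missed. The gene that passed was Pgm5, a cytoskeletal relative of phosphoglucomutase found at muscle adhesions. In the wild type it measured 5.64, 5.66 and 4.28 RPKM at E11.5 and 9.22, 10.8 and 10.1 at E12.5 (log2 fold change 0.95 ± 0.12, adjusted p = 0.00270, edgeR), and its change in the knockout was 2.36, a difference of -1.42 ± 0.18 (adjusted p = 0.0358, edgeR). Pgm5 lost its call without E12.5 wild-type replicate 1, 2 or 3, without E11.5 wild-type replicate 1 or 2, without E11.5 knockout replicate 3 and without E12.5 knockout replicate 2 or 3 (adjusted p from 0.0504 to 0.216, edgeR). Over these analyses the count of genes ranged from 0, without E11.5 wild-type replicate 1 or 2 or E12.5 knockout replicate 2 or 3 (edgeR, 1154 to 1491 genes at an unadjusted p under 0.05), to 5 without E11.5 knockout replicate 1. It was 2 without E11.5 wild-type replicate 3 and 4 without E12.5 knockout replicate 1.

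For the genes that carry the wild-type results, the changes in the genotypes stood side by side as follows. Shh changed by -6.53 in wild-type and -5.82 in knockout hindlimbs, Lin28b by -2.40 and -2.07, Gdf5 by 2.14 and 2.57, and Des by 2.96 and 3.28. Tbx4 fell in the wild type (-0.51) and was at 0.17 in the knockout, a difference of -0.69 ± 0.11 that did not pass (adjusted p = 0.107, edgeR). Pax7, Myog and Myod1, of which the last 2 were lost in the wild type without single libraries as given above, had changes of 1.64, 1.71 and 0.87 in the wild type and 4.26, 3.70 and 2.19 in the knockout. Their differences of -2.62 ± 0.71, -1.999 ± 0.60 and -1.33 ± 0.41 did not pass either (adjusted p = 0.318, 0.374 and 0.374, edgeR).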

How the data were processed

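Per the labels, total RNA was isolated from hindlimbs with the mirVana kit and sequenced on a NextSeq after TruSeq Stranded mRNA library preparation. TopHat2, Cuffdiff, FastQC and the mouse build mm9 are named in the submitters' processing notes, without versions, and whether strand was used in counting is not given in the sources used here. The authors deposited 1 table per stage, with estimated counts of fragments per gene and library, of which 1.82% were not whole, and with RPKM that the authors scaled within each stage. File replicates are numbered from 0 and were taken as replicates 1 to 3 of a group. Of 23929 genes listed, 2 names shared by different genes and 24 genes with a failed estimate were left out, leaving 23901, among them 25 names that a spreadsheet had turned into dates.

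Estimated counts were rounded and tested with edgeR 4.0.16 in R 4.3.3 (TMM factors, filterByExpr, robust quasi-likelihood fit, Benjamini-Hochberg adjustment over all genes tested, threshold 0.05), over the 6 wild-type libraries for stage and over 12 libraries for the difference between genotypes. RPKM were multiplied by a factor per library only for display. DESeq2 1.42.0, limma 3.58.1, other factors and filters, thinning, a 1.5-fold test, a replicate block and leaving out each library were alternatives. On simulated data for stage with 14906 genes, edgeR recovered 52% of 50 genes changed 1.5-fold and 78% of 50 changed 2-fold. Library depth of 24218637 to 40835559 fragments limits precision for genes with few fragments, and intervals cover counting error only.

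The members and gene lists were chosen with earlier results of these data known. Genes to be named were a fixed set, the 15 largest rises and 15 largest falls with a mean of at least 1 RPKM and no overlap between stages, up to 6 passing members and the most abundant member of each list, and genes that differed between genotypes. Other genes named were chosen after their values were seen. Lists are described by counts and medians, without set tests. The E9.5 libraries were not analysed here. Some members of the lists are counted but not reported here by name. Promoter and microRNA sequences are from RefSeq and 3′ UTRs from GENCODE, on a later build than mm9, and were matched by gene symbol.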

Additional observations from a re-analysis of the deposited data

Results flagged for a closer look

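The stage change of Pgm5 differed between the genotypes by the test of the difference itself. The change in the wild type minus that in the knockout was -1.42 on the log2 scale (adjusted p = 0.0358, edgeR interaction contrast over 12 libraries). Its dependence on single libraries is given with the comparison of genotypes, and DESeq2 gave an adjusted p of 5.775e-10.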

How the results depend on the processing

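No gene called between stages was called in the opposite direction under any alternative, and 2040 to 3739 of the 3771 calls were shared with each alternative except the 1.5-fold test, which shared 538. That test asks for a larger change and called 461 genes higher and 77 lower, 455 and 72 of them by at least 2-fold. With all 12 libraries in the fit, 2488 genes were lower. Without 1 library, genes higher ranged from 1272 to 2076, genes lower from 842 to 1360, those at least 2-fold higher from 672 to 1156 and those at least 2-fold lower from 136 to 231. The count of genes that differed between genotypes was 113 with DESeq2, 2 without the filter and 0 to 5 without 1 library (edgeR, 1154 to 2066 genes at an unadjusted p under 0.05), and the cause was not tested. The share of calls that were higher was 58.1% and lay between 51.2% and 63.7% under all alternatives but the 1.5-fold test (85.7%).

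Same-numbered replicates did not deviate together over the tested genes (correlations of -0.006, -0.094 and -0.061). Whether they shared a batch or handling was not tested. With the replicate block, 1740 genes were higher and 1126 lower, 2747 of the calls were shared, and 1 gene differed between genotypes. Of the named genes, 259 kept direction and side of the threshold under the block, 46 no longer passed and 4 newly passed.

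Some genes that did not pass changed the sign of their log2 fold change. Sox9 was at -0.0185 with limma, -0.0032 without the filter and -0.0186 with the replicate block. Hoxa11 was at 0.0014 and Igf2 at 0.0097 with upper-quartile factors. Without 1 library, values ranged for Sox9 from -0.21 to 0.20, for Sox5 from -0.12 to 0.24, for Hoxa11 from -0.095 to 0.035, for Hoxa13 from -0.0056 to 0.17, for Fgf10 from -0.47 to 0.15, for Spry2 from -0.092 to 0.15, for Crabp2 from -0.087 to 0.0045 and for Alx1 from -0.96 to 0.66. The ranges were -0.084 to 0.21 for Myc, -0.077 to 0.035 for Igf2, -0.064 to 0.10 for Bax, -0.041 to 0.064 for Ldha, -0.63 to 0.040 for Hbb-y, -0.27 to 0.42 for Hba-a1, -0.63 to 0.029 for Alas2 and -3.36 to 1.63 for Wt1. The cause was not tested.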

Other observations

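Several genes stood apart in 1 library. Alx1, a homeodomain factor, measured 0.304, 0.474 and 1.96 RPKM at E11.5 and 0.608, 0.697 and 0.575 at E12.5 and did not pass, with E11.5 replicate 3 highest. Pax1, a sclerotome and shoulder girdle gene, measured 2.83, 0.790 and 4.26 RPKM at E11.5 and 0.278, 0.385 and 1.16 at E12.5 and did not pass, again highest in that library, but passed as lower without E11.5 replicate 2 (log2 fold change -2.50, adjusted p = 0.0269, edgeR). Chodl, a membrane lectin of developing muscle and neurons, measured 0.413, 0.224 and 0.346 RPKM at E11.5 and 4.74, 8.56 and 33.7 at E12.5 (log2 fold change 5.59 ± 1.03, adjusted p = 0.0210, edgeR) and was lost without E11.5 replicate 1, 2 or 3 (adjusted p from 0.0652 to 0.0760, edgeR), with E12.5 replicate 3 far above the others and a value of 4.33 without it. Calca, the gene of calcitonin and a sensory neuropeptide, measured 0.0914, 0 and 0 RPKM at E11.5 and 0.382, 0.641 and 3.48 at E12.5 (log2 fold change 5.505 ± 1.26, adjusted p = 0.0174, edgeR) and was lost without E11.5 replicate 1, 2 or 3 (adjusted p from 0.0523 to 0.0634, edgeR). Without E12.5 replicate 3 it was at 3.92, and its E11.5 fragments were all in replicate 1.

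Mast cell genes were highest in the same E12.5 library. Cpa3, a mast cell carboxypeptidase, measured 0.192, 0.345 and 0.293 RPKM at E11.5 and 0.603, 1.42 and 6.52 at E12.5 (log2 fold change 3.37 ± 0.90, adjusted p = 0.0353, edgeR) and was lost without E11.5 replicate 1, 2 or 3 or E12.5 replicate 2 (adjusted p from 0.0529 to 0.119, edgeR). Hdc, the enzyme that makes histamine, measured 0.109, 0.175 and 0.111 RPKM at E11.5 and 0.326, 0.490 and 1.06 at E12.5 (log2 fold change 2.25 ± 0.53, adjusted p = 0.0157, edgeR) and was lost without E11.5 replicate 1 or 3 or E12.5 replicate 3 (adjusted p from 0.0604 to 0.0721, edgeR). Without E12.5 replicate 3 the values were 1.84 for Cpa3 and 1.60 for Hdc. The platelet gene Gp9, of the same list, passed as lower (log2 fold change -1.52 ± 0.38, adjusted p = 0.0201, edgeR) and was lost without E11.5 replicate 1 or 3 or E12.5 replicate 2 or 3 (adjusted p from 0.0594 to 0.0658, edgeR).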
